A study of Mus musculus with 3 samples.

Results

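The genes described here are 10 signalling proteins, secreted or held at the cell membrane, that B cells are known to be able to make: the tumor necrosis factor family members lymphotoxin alpha (Lta), lymphotoxin beta (Ltb) and tumor necrosis factor (Tnf), the cytokines interleukin 10 (Il10), interleukin 6 (Il6), the cytokine subunit Ebi3 and transforming growth factor beta 1 (Tgfb1), and the chemokines Ccl3, Ccl4 and Ccl22. They were taken by name and are 10 of the 32285 genes in the expression tables. All 10 were found in the 3 tables, and 9 had enough transcripts for at least 1 test. Ccl22, a chemokine that attracts CCR4-bearing T cells, had 2 transcript molecules in all 34589 B cells, both after R848 alone, and is not described further.

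The cells were spleen B cells, enriched by negative selection from female wild-type BXD2 mice, a recombinant inbred strain that spontaneously develops lupus-like autoimmunity. Each mouse, 3 per treatment, received an intraperitoneal injection of R848 (resiquimod), a small molecule that activates TLR7, an endosomal receptor for single-stranded RNA. The dose was 40 µg for each 20 g of mouse. The control mice, called R848 here, had received 25 µg of the anti-IL-4 antibody BVD4-1D11 alone 2 h earlier, and the IL-4+R848 mice had received 5 µg of IL-4 bound to 25 µg of that antibody, a form in which the cytokine lasts longer in the body. The treatment was repeated after 2 days and the spleens were taken 2 days later. Every mouse had therefore received both R848 and the antibody, and no untreated mice enter these comparisons. The ages of the mice are not given in the sources used here. Cells of both treatments carried hashtag antibodies and were pooled in 3 single-cell libraries, called sets 1, 2 and 3. Whether a set was made from 1 mouse of each treatment is not stated in the labels, so n = 3 below means 3 sets, and a p-value measures only the spread between sets.

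Lymphotoxin alpha and beta form a membrane complex that keeps the lymphoid tissue of the spleen organised, and tumor necrosis factor acts through related receptors. IL-10 and TGF-beta restrain immune responses, and Ebi3 pairs with other subunits to make IL-27 and IL-35. CCL3 and CCL4 attract T cells and monocytes. Many of these genes are known targets of NF-kB, which TLR7 activates, whereas IL-4 acts through the transcription factor STAT6.

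The promoters of 4 members are shown because Lta, Ebi3 and Ccl3 fell with IL-4 in follicular-like cells, as described below, whereas Tnf, the neighbour of Lta, did not pass the test there. RefSeq gives 8 of the 10 promoters for the build GRCm38.p6, and those of Il10 and Ccl4 are missing from the table. Each sequence holds the 250 bases before the transcription start, 5′ to 3′ on the strand of the gene. Capitals mark matches, on either strand, to the NF-kB pattern (GGG, any 5 bases, CC) or the STAT6 pattern (TTC, any 4 bases, GAA). The AP-1 pattern TGANTCA had no match in the 4 promoters shown. The windows are chr17:35205352-35205601 (minus strand) for Lta, chr17:35202008-35202257 (minus strand) for Tnf, chr17:55952373-55952622 (plus strand) for Ebi3 and chr11:83649379-83649628 (minus strand) for Ccl3.
Lta: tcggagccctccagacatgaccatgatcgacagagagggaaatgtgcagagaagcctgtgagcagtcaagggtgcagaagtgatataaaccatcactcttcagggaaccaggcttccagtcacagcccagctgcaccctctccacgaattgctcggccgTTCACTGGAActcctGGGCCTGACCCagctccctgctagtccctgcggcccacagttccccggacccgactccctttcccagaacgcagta
Tnf: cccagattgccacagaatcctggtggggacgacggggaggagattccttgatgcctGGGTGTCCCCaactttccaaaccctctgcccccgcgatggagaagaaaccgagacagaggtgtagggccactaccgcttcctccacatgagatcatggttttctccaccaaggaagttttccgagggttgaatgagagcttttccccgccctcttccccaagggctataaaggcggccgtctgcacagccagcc
Ebi3: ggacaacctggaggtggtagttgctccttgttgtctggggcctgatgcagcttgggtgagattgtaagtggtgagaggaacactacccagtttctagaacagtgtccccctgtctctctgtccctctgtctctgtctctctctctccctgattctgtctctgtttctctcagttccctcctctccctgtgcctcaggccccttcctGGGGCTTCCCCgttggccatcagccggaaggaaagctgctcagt
Ccl3: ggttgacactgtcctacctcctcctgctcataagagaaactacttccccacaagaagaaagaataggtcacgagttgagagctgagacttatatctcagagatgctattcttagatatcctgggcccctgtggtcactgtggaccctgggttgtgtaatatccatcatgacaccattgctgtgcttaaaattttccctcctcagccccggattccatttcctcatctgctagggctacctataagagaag
Of these promoters only that of Lta held a STAT6 pattern, which 5.85% of the 32851 mouse promoters in the table also held. The NF-kB pattern occurred in 45.8% of them. Counting overlapping matches and both strands, it matched 2 times in the Lta promoter, 2 times in the Tnf promoter, 4 times in the Ebi3 promoter and 0 times in the Ccl3 promoter. Such matches describe letters in a window and are not binding sites.

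In the mm10 annotation (GENCODE) Ltb (chr17:35194439-35196320), Tnf (chr17:35199381-35202007) and Lta (chr17:35203165-35205351) are neighbours, as are Ccl3 (chr11:83647844-83649355) and Ccl4 (chr11:83662584-83664683). Il10 lies at chr1:131019845-131024974, Il6 at chr5:30013114-30019981, Tgfb1 at chr7:25687002-25705077 and Ebi3 at chr17:55952640-55957022. The non-coding gene Gm16712 overlaps Ebi3 on the other strand, so the values of Ebi3 are less certain. Ccl3 and Ccl4 are related in sequence, and how reads that match both were counted is not given in the sources used here.

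The 3 libraries held 14519, 11389 and 14222 barcodes and between 96866964 and 107244246 transcript molecules (UMIs). After barcodes with both hashtags, without a clear hashtag or of low quality were left out, R848 cells numbered 7146, 5641 and 7530 in the 3 sets, beside 5125, 4579 and 5081 from IL-4+R848 mice. Between 219 and 289 barcodes were shared by a pair of libraries. Median depth was lower in the R848 cells of every set (4446 to 5932 UMIs) than in the IL-4+R848 cells (5199 to 6995 UMIs). Cells were clustered without the 10 genes and the gene lists used below, and clusters were named from markers. The summed germinal center markers were 1853 to 1969 CPM (counts scaled to a common library total) in germinal center-like R848 cells against 57.8 to 68.9 in follicular-like cells. The other class markers separated likewise, apart from the activated and follicular lists. The activated list was nearly as high in marginal zone-like cells (1676 to 2087) as in activated-like cells (1897 to 2112). The follicular list, by mean log2 ratio to all other cells, was 0.40, 0.31 and 0.51 in the follicular-like clusters 1, 2 and 3. It was 0.38 in transitional-like, 0.41 in activated-like and 0.28 in marginal zone-like cells. The follicular name did not need the 3 raised markers asked of other types. One cluster with tied markers is called the Zbtb32 cluster after a leading gene. Follicular-like R848 cells lay mainly in clusters 0 and 6 and follicular-like IL-4+R848 cells in clusters 1, 2 and 3, so a treatment difference in that class also compares different clusters. Cells without a B cell class or of other lineages, such as the 202 NK-like cells, are outside the B cell classes.

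Of the 10 genes, Ltb was the most abundant transcript and followed the resting B cell types. Among R848 cells its mean level, in CPM after scaling of the summed counts, was highest in transitional-like cells, followed by follicular-like cells, the Zbtb32 cluster, marginal zone-like, activated-like, germinal center-like, cycling-like and plasmablast-like cells. In sets 1, 2 and 3 it was 1270.0, 1237 and 1152 CPM in transitional-like cells, 1059, 919 and 987 in follicular-like cells and 84.4, 79.9 and 67.9 in plasmablast-like cells. The plasmablast-like sets lay below every set of every other class. Ltb was lower in plasmablast-like than in follicular-like cells (log2 fold change -3.65, SE 0.11, adjusted p = 1.74e-06, edgeR quasi-likelihood test with Benjamini-Hochberg adjustment, as are all adjusted p-values here). On the same scale it was 0.30 higher in transitional-like cells (SE 0.04, adjusted p = 5.68e-06). The Zbtb32 cluster and follicular-like cells overlapped, at 886, 923 and 938 CPM in the cluster, with a log2 difference of -0.09 (adjusted p = 0.265).

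Lta, the partner of Ltb, had a different order. It was highest in germinal center-like cells (41.4, 37.6 and 31.8 CPM in the 3 sets) and marginal zone-like cells (37.0, 35.3 and 34.8), 2 classes whose ranges overlapped. Both lay above follicular-like cells (20.8, 20.3 and 15.1), by 1.03 on the log2 scale in germinal center-like cells (SE 0.09, adjusted p = 1.28e-05) and by 0.95 in marginal zone-like cells (SE 0.10, adjusted p = 2.38e-05). Plasmablast-like cells, at 1.57, 1.76 and 0.743 CPM, were again lowest. In R848 germinal center-like cells 33.2% had at least 1 Lta UMI, against 7.33% of follicular-like cells and 0.986% of plasmablast-like cells, at median depths of 13566, 4349 and 17477 UMIs. The plasmablast-like cells, the deepest of the 3, thus had the smallest share.

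Tnf was scarce and was highest in activated-like cells, at 18.7, 16.2 and 14.9 CPM. Cycling-like cells followed with 13.0, 14.8 and 9.74 CPM, then marginal zone-like cells with 7.36, 12.2 and 8.99. Follicular-like cells had 3.24, 2.69 and 2.43 CPM and did not overlap any of these 3 classes. The log2 difference from follicular-like cells was 2.60 in activated-like cells (SE 0.19, adjusted p = 1.62e-08), 2.22 in cycling-like cells (SE 0.23, adjusted p = 5.29e-05) and 1.76 in marginal zone-like cells (SE 0.22, adjusted p = 0.000107). Germinal center-like cells also lay above follicular-like cells without overlap, by 1.74 on the log2 scale (SE 0.20, adjusted p = 8.04e-05). Only 7 Tnf UMIs were counted in all R848 plasmablast-like cells. Across the 8 classes and both treatments the mean levels of Lta and Tnf correlated with r = 0.81 and those of Ltb and Tgfb1 with r = 0.922, as a description over 16 values that share libraries.

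**Figure D1:**
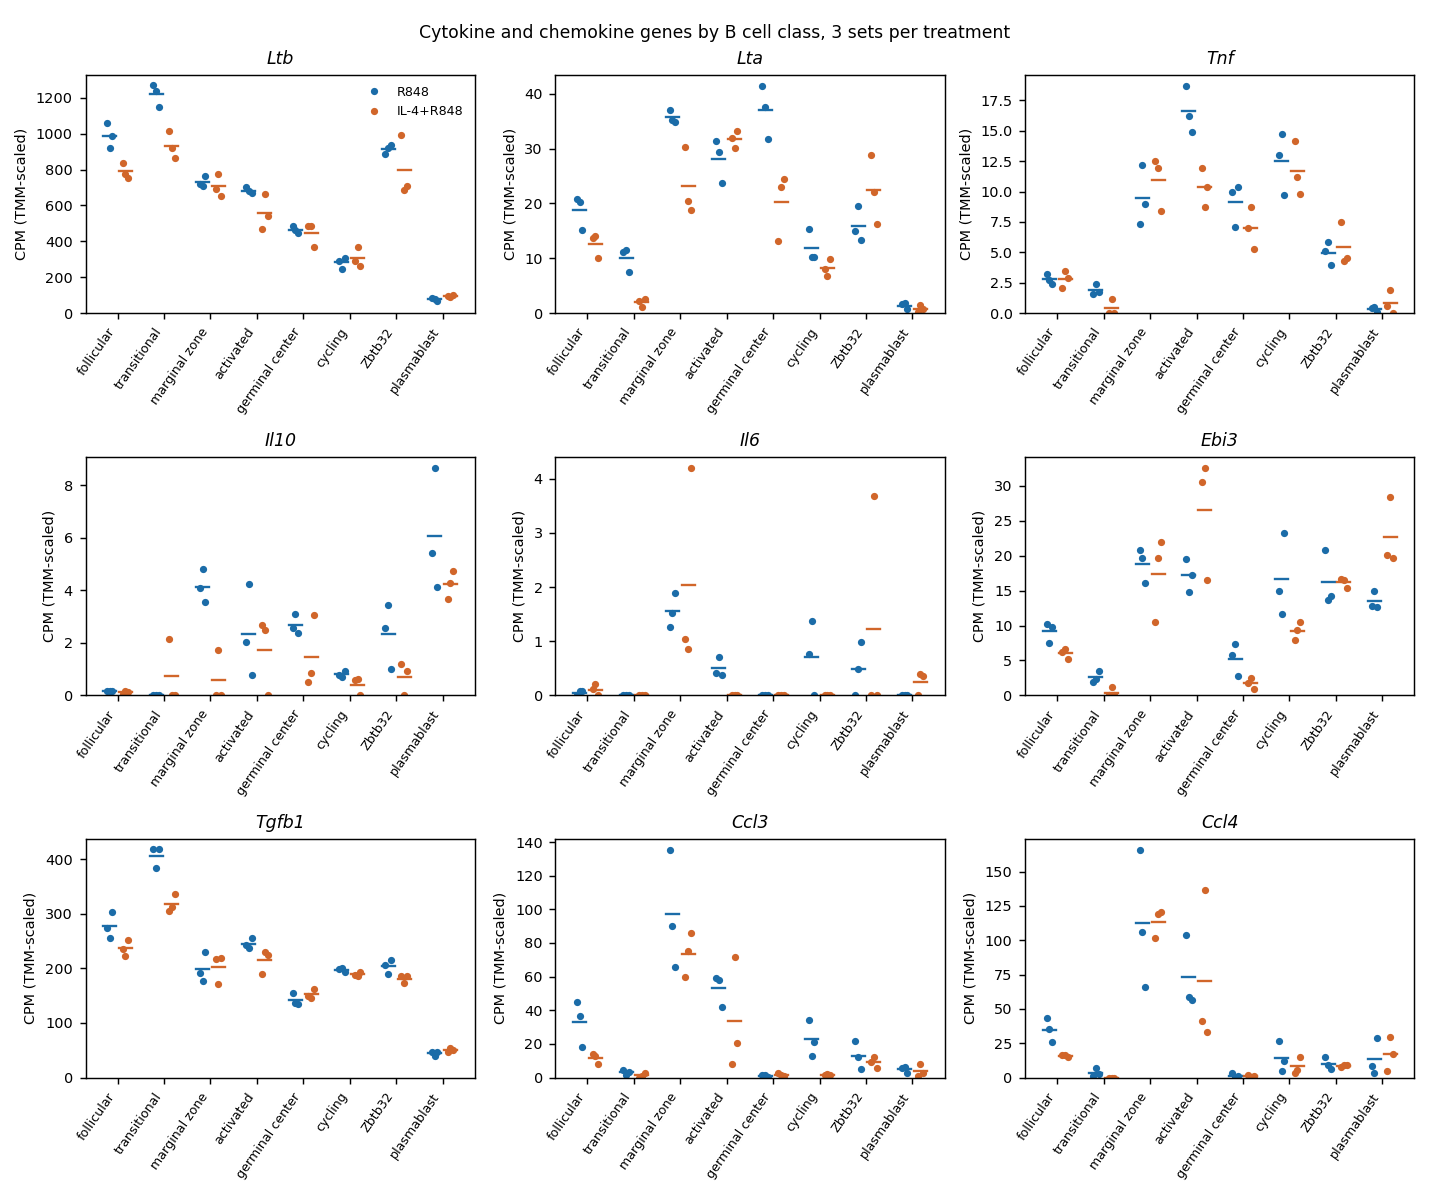
Levels of 9 genes (CPM after scaling, vertical axes from 0) in 8 B cell classes, with 1 point for each of the 3 sets and a line at the mean, R848 in blue and IL-4+R848 in orange. Ltb and Tgfb1 are lowest in plasmablast-like cells, Il10 has its highest R848 mean there, and Ccl3 and Ccl4 have their highest R848 means in marginal zone-like cells.

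Il10 was opposite to Ltb at both ends of the order of classes. Like Lta, it was also high in marginal zone-like and germinal center-like cells. It was highest in R848 plasmablast-like cells at 5.43, 8.65 and 4.14 CPM (131 UMIs in all), followed by marginal zone-like cells at 4.07, 4.79 and 3.55 (63 UMIs) and germinal center-like cells at 2.57, 3.08 and 2.38 (61 UMIs). The first 2 classes overlapped. In follicular-like cells it was 0.151, 0.158 and 0.152 CPM, from 6 UMIs in 8597 cells, and no Il10 UMI was seen in 2443 transitional-like cells, which allows a share of cells with a UMI of up to 0.123%. The 3 classes did not overlap follicular-like cells. Il10 entered the tests against follicular-like cells only through the class where it was higher, so no fold or p-value is given for them.

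Il10 was found in few cells of any class. At least 1 UMI was present in 91 of 2129 plasmablast-like R848 cells (4.27%), 48 of 1301 germinal center-like cells (3.69%) and 48 of 2202 marginal zone-like cells (2.18%), against 0.0698% of follicular-like cells. Median depths were 17477, 13566, 6749 and 4349 UMIs in that order. When each cell was thinned to 2000 UMIs, the share was 1.02% ± 0.155 (SD, n = 3 sets) in plasmablast-like, 0.753% in marginal zone-like, 0.587% in germinal center-like and 0.026% in follicular-like cells, over the 2089, 2184, 1275 and 8286 cells that were deep enough. The follicular-like share stayed below the other 3 at equal depth. The part of free RNA in these shares was not tested.

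Sorting the same cells by surface antibody counts, which were not used for clustering, placed Il10 away from mature naive cells as well, though with another order of levels. The CD21 gate held cells in the top 10% for CD21, a receptor high on marginal zone B cells, and not above the median for CD23. Among its R848 cells Il10 was 4.72, 7.59 and 7.08 CPM. In the top 10% for the plasma cell antigen CD138 it was 4.29, 5.53 and 3.12, and in cells above the median for IgD, a marker of mature naive cells, 0.715, 0.472 and 0.225. Neither of the first 2 gates overlapped the IgD gate. The CD21 gate had the highest mean, whereas by clusters plasmablast-like cells did. The GL7 gate, cells in the top 10% both for the germinal center antigen GL7 and for CD95, overlapped the IgD gate, at 1.5, 2.64 and 0.469 CPM. Ltb had the reverse order, at 183, 249 and 143 CPM in the CD138 gate and 849, 805 and 845 in the IgD gate.

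Within the plasmablast-like class, Il10 lay mostly in cells whose leading heavy chain gene was Ighm. This split was chosen after the values had been seen and is given without a test. Of the R848 Ighm cells 72 of 872 (8.26%, exact 95% interval 6.52 to 10.3%) had an Il10 UMI, with 6.37%, 12.2% and 7.36% in the 3 sets. Of the class-switched cells 19 of 1257 (1.51%, 0.912 to 2.35%) had one, with 1.63%, 1.44% and 1.49%. The Ighm cells were the shallower group, with a median of 13552 UMIs against 20071. In IL-4+R848 mice the shares were 5.08% of Ighm cells and 3.22% of switched cells, whose sets lay between 2.74% and 4.03%. These intervals cover counting error only.

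**Figure D2:**
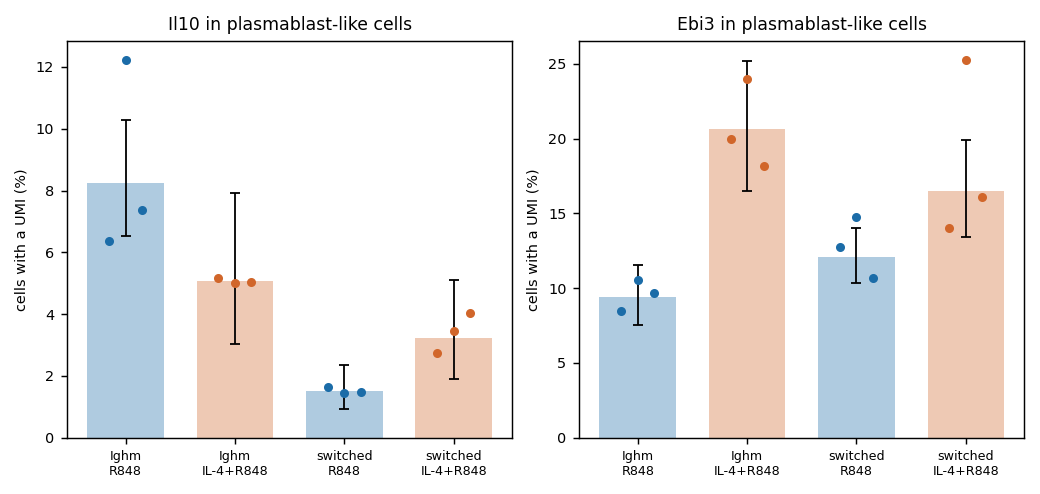
Percent of plasmablast-like cells with at least 1 UMI of Il10 or Ebi3, split by the leading heavy chain gene (Ighm or class-switched) and treatment, with bars for the pooled cells, points for the 3 sets and exact 95% binomial error bars. For Il10 the R848 Ighm bar (8.26%) stands above the R848 switched bar (1.51%), and for Ebi3 the Ighm bar is higher with IL-4 (20.6%) than without (9.40%).

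Il6, which supports plasma cell and germinal center responses, had 38 UMIs in all R848 B cells, of which marginal zone-like cells held 60.5%. Its level in that class was 1.25, 1.52 and 1.89 CPM in the 3 sets. Follicular-like cells held 2 UMIs. Il6 entered that test only through marginal zone-like cells, so no fold or p-value is given. Il6 was not seen in R848 germinal center-like, plasmablast-like or transitional-like cells.

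Ebi3 was spread over more classes than Il10. It was 20.8, 19.6 and 16.1 CPM in marginal zone-like, 19.5, 14.8 and 17.2 in activated-like and 12.9, 14.9 and 12.6 in plasmablast-like R848 cells. Follicular-like cells had 10.3, 7.45 and 9.78, below all sets of these 3 classes. Transitional-like cells had the lowest level, 1.93, 2.40 and 3.55. The log2 difference from follicular-like cells was 1.07 in marginal zone-like (adjusted p = 0.000119), 0.57 in plasmablast-like (adjusted p = 0.0188) and -1.79 in transitional-like cells (adjusted p = 4.54e-05). The plasmablast-like call was lost without set 2 (0.40, adjusted p = 0.0566) and with clusters made without treatment genes (0.34, adjusted p = 0.119).

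Tgfb1 followed Ltb, with 418, 383 and 418 CPM in transitional-like, 274, 256 and 302 in follicular-like and 46.3, 39.7 and 46.2 in plasmablast-like R848 cells. These 3 classes did not overlap. The log2 difference from follicular-like cells was 0.55 in transitional-like (SE 0.04, adjusted p = 1.61e-08) and -2.63 in plasmablast-like cells (SE 0.09, adjusted p = 2.63e-06).

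The chemokines Ccl3 and Ccl4 were highest, among B cells, in marginal zone-like cells. Ccl3 was 135, 90.4 and 65.5 CPM there, 58.9, 58.3 and 42.0 in activated-like cells and 44.9, 36.3 and 17.9 in follicular-like cells. Set 1 was the highest and set 3 the lowest in all 3 classes, and within each set the order of the classes was the same. The lowest values were in germinal center-like cells, at 1.47, 1.54 and 0.340 CPM. Within sets, Ccl3 was 1.59 higher on the log2 scale in marginal zone-like than in follicular-like cells (SE 0.08, adjusted p = 1.97e-07). In germinal center-like cells, with 27 UMIs, it was lower than in follicular-like cells without overlap of the groups. It entered that test only through follicular-like cells, so no fold or p-value is given. Ccl4 showed the same pattern, with 165, 106 and 66.2 CPM in marginal zone-like and 43.2, 35.6 and 25.9 in follicular-like cells, a log2 difference of 1.69 (SE 0.09, adjusted p = 2.09e-07). The CD21 gate, at 90.2, 61.6 and 50.8 CPM of Ccl3, was likewise above the gate for GL7 and CD95, at 8.65, 11.6 and 15.

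NK cells are known for high CCL3 and CCL4, and the NK-like R848 cells of these libraries had 1141, 1483 and 629 CPM of Ccl3. The 8 NK markers summed to 4.93, 7.99 and 3.57 CPM in marginal zone-like R848 cells, where Klrk1 and Eomes were at 0 and 6 of the 8 were detected, and to 2.51, 3.69 and 2.12 CPM in follicular-like R848 cells, where Klre1 was at 0. The part of such RNA in the chemokine levels was not tested. Ccl3 was found in 24.4% of marginal zone-like R848 cells (30.3%, 24.1% and 16.8% in the sets) and in 1.46% of germinal center-like cells, although the median depth of the latter was greater (13566 against 6749 UMIs).

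Cells with Ccl3 held Ccl4 more often than cells without it. In marginal zone-like R848 cells Ccl4 was present in 178 of 537 cells with Ccl3 (33.1%) and in 12.2% of cells without it, at nearly equal median depths of 6918 and 6719 UMIs. The corresponding shares were 21.7% and 4.39% in follicular-like and 30.3% and 7.47% in activated-like cells. Ccl4 was more unevenly spread than the other chemokine and than the lymphotoxins. Of its 6098 UMIs, found in 1676 B cells, the 1% of B cells with the most held 65.0%, against 48.1% for Ccl3, 27.3% for Lta and 6.06% for Ltb. One plasmablast-like cell of R848 set 3 held 249 of the 353 Ccl4 UMIs of its class, so the R848 level of Ccl4 in that class rests mostly on 1 cell.

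Counting where the UMIs of each gene lay among all R848 B cells sets levels and cell numbers together. Plasmablast-like cells were 10.6% of these cells and held 26.4% of all UMIs, and they held 43.5% of the 301 Il10 UMIs. Marginal zone-like cells, 11% of the cells and 10.7% of all UMIs, held 20.9% of the Il10, 41.7% of the 3733 Ccl3 and 41.3% of the 4408 Ccl4 UMIs. Germinal center-like cells, 6.48% of the cells and 14% of all UMIs, held 31.5% of the 2677 Lta UMIs and 27.1% of the 746 Tnf UMIs. Follicular-like cells were 42.8% of the cells and held 44.7% of the Ltb but 1.99% of the Il10 UMIs. The deep plasmablast-like cells thus held more Il10, and the marginal zone-like cells more Ccl3 and Ccl4, than their shares of all UMIs.

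**Figure D3:**
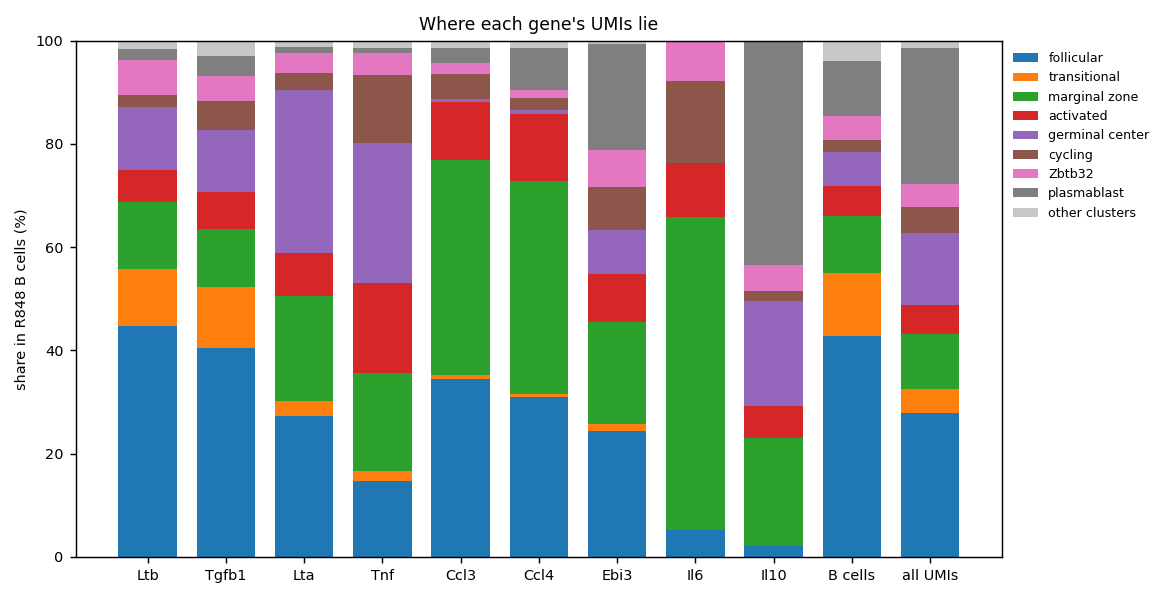
Stacked bars of the percent of each gene's UMIs that lay in each cell class among R848 B cells, beside bars for the B cells themselves and for all UMIs. Marginal zone-like cells, 11% of the B cells, hold 41.7% of the Ccl3 UMIs, and plasmablast-like cells, 10.6% of the B cells, hold 43.5% of the Il10 UMIs.

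The share of members that differed between classes was high, as was that of all genes. Against follicular-like R848 cells, 9 of 9 tested members differed in marginal zone-like cells (7 higher and 2 lower, with 17.1% of all genes higher, 16.7% lower and 33.8% called), 8 of 8 in germinal center-like cells (3 higher and 5 lower, beside 35.7%, 36.9% and 72.7% of all genes) and 7 of 8 in plasmablast-like cells (2 higher and 5 lower, beside 36.2%, 38.6% and 74.8%). In activated-like cells 7 of 7 members differed (5 higher and 2 lower, beside 26.7%, 25.9% and 52.6%), in transitional-like cells 6 of 7 (2 higher and 4 lower, beside 16.8%, 18.1% and 34.9%), in cycling-like cells 6 of 7 (2 higher and 4 lower, beside 25.4%, 22.7% and 48.1%) and in the Zbtb32 cluster 4 of 7 (1 higher and 3 lower, beside 14.2%, 11.3% and 25.6%). These counts include Il10 and Il6 and other members that entered a test only through the class where they were higher. With so many genes called, the number of members called says little about the members. With the IL-4+R848 sums in place of the R848 sums, 5 members differed in marginal zone-like and 3 in cycling-like cells.

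The second comparison was that of the treatments within each class. In follicular-like cells, 6 of the 7 tested members fell with IL-4 (of all genes 8.23% fell, 8.69% rose and 16.9% were called in either direction) and none rose. The 6 were Lta, Ltb, Tgfb1, Ebi3, Ccl3 and Ccl4, each lower in the IL-4+R848 cells of 3 of 3 sets without overlap of the groups. The median log2 fold change of the tested members was -0.60, beside 0.00 over all genes tested.

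Ccl3 and Ccl4 had the largest of these falls. Ccl3 was 44.9, 36.3 and 17.9 CPM in R848 sets 1, 2 and 3 and 13.8, 12.7 and 8.26 in the IL-4+R848 sets, a log2 fold change of -1.54 (SE 0.29, adjusted p = 0.00390). Ccl4 was 43.2, 35.6 and 25.9 against 16.7, 16.1 and 15.2, a log2 fold change of -1.16 (SE 0.15, adjusted p = 0.000429). R848 set 1 was highest for both, and the lowest R848 set still lay above the highest IL-4+R848 set. The call for Ccl3 held under all 13 alternative settings, with log2 fold changes from -1.66 to -1.40. That for Ccl4 was lost where follicular cells were taken by the IgD antibody in place of clusters.

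Genes that are known to be induced while cells are handled moved the same way. Their summed level in follicular-like cells was 6022, 4811 and 4012 CPM in the R848 sets and 3184, 3163 and 2874 in the IL-4+R848 sets, in the same order of sets as Ccl3. Of 18 listed genes 16 were tested, of which 11 fell, among them Nr4a1 (log2 fold change -1.91), Fos (-1.58) and Dusp1 (-1.46), and 1 rose, Hsp90aa1 (0.36). The part of handling in the fall of Ccl3 and Ccl4 was not tested. The NK markers summed to 1.76, 2.46 and 1.82 CPM in the IL-4+R848 follicular-like cells, below the R848 values in 3 of 3 sets, and their part was not tested.

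**Figure D4:**
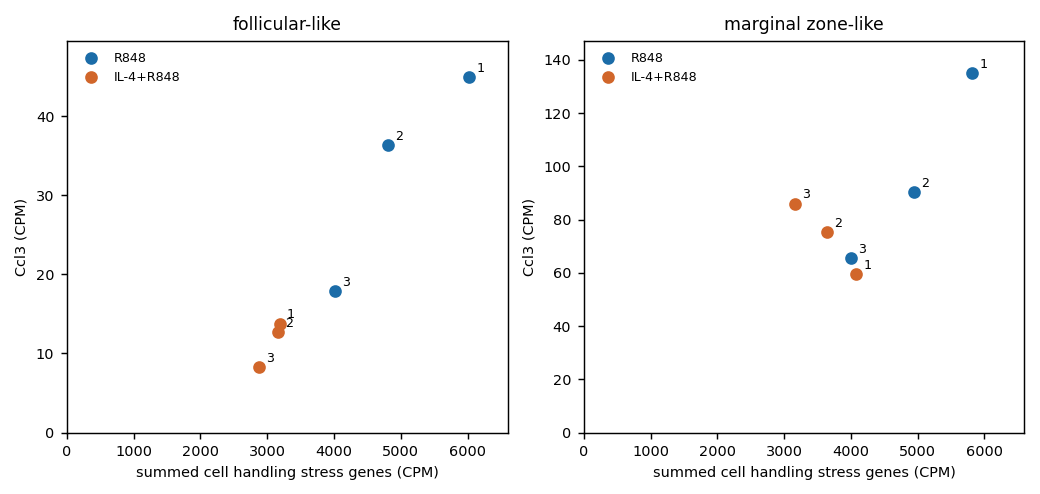
Ccl3 level against the summed level of the handling-induced genes (both in CPM), with 1 point for each set and treatment, labelled by set, in follicular-like and in marginal zone-like cells. In follicular-like cells the 3 R848 points lie above and to the right of the 3 IL-4+R848 points, and set 1 of R848 is highest on both axes in both panels.

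The other 4 falls in follicular-like cells were smaller. Lta was 20.8, 20.3 and 15.1 CPM with R848 and 13.8, 14 and 10.1 with IL-4 added (log2 fold change -0.60, SE 0.15, adjusted p = 0.0188). Ltb was 1059, 919 and 987 against 839, 778 and 754 (log2 fold change -0.36, SE 0.06, adjusted p = 0.00238). Ebi3 was 10.3, 7.45 and 9.78 against 6.26, 6.66 and 5.2 (log2 fold change -0.63, SE 0.15, adjusted p = 0.0147). Tgfb1 was 274, 256 and 302 against 236, 222 and 251 (log2 fold change -0.27, SE 0.07, adjusted p = 0.0253). The groups did not overlap for any of the 4, though for Ebi3, Lta and Tgfb1 the nearest sets of the groups lay close together. Leaving out a single set lost the call for Lta (without set 1 or set 2), Ebi3 (without set 1 or set 3) and Tgfb1 (without set 1 or set 2). With follicular cells taken by the IgD antibody the calls for Ltb and Tgfb1 were lost, and that for Tgfb1 was also lost with clusters made without treatment genes. Tnf, at 3.24, 2.69 and 2.43 against 2.09, 3.46 and 2.88 CPM, overlapped and had a log2 fold change of -0.02 (adjusted p = 0.965).

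Transitional-like cells had too few transcripts for all but 3 members, of which 2 fell with IL-4 (0.767% of all genes fell and 1.88% were called). Ltb was 1270.0, 1237 and 1152 CPM with R848 and 1014, 923 and 866 with IL-4 (log2 fold change -0.36, SE 0.07, adjusted p = 0.0135). Lta was 11.2, 11.6 and 7.46 CPM against 2.15, 1.17 and 2.54, or 79 UMIs against 4. With so few IL-4+R848 UMIs it entered the test through the R848 sums alone. No fold or p-value is therefore given for Lta, though the count of 2 includes it. The Lta call was lost under 6 of 12 alternatives, among them leaving out any set. Neither gene's groups overlapped. Tgfb1 lay between 383 and 418 CPM with R848 and between 306 and 336 with IL-4 and did not pass (log2 fold change -0.32, adjusted p = 0.0665). It passed in the fit that paired the sets (adjusted p = 0.0343) and under 3 other settings, without the low-count filter (0.00658), with clusters made without treatment genes (0.000964) and without immunoglobulin genes (0.0221). Ccl4 had 27 UMIs in R848 transitional-like cells and 0 in IL-4+R848 cells, a ratio for which counting error allows up to 0.551. This bound pools the sets and leaves out the spread between cells and sets.

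In cycling-like cells 1 member, Ccl3, fell (0.403% of all genes fell and 1.27% were called). It was 34.5, 13.1 and 21.3 CPM with R848 and 1.70, 1.86 and 1.51 with IL-4, or 174 UMIs against 8. The groups did not overlap. Ccl3 entered the test only through the R848 sums, so no fold or p-value is given. The handling-induced genes summed to 2948, 2960 and 2425 against 2174, 2653 and 2087 CPM in these cells, which overlap, and their part was not tested. Ccl4 in the same cells overlapped between the treatments (26.4, 4.81 and 12.1 against 3.41, 5.58 and 15.1 CPM).

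In the other classes no member passed the test with the clusters and cells used here. Of the members tested, 0 of 7 passed in marginal zone-like cells (1.17% of all genes called), 0 of 7 in activated-like cells (0.839%), 0 of 6 in germinal center-like cells (0.265%) and 0 of 7 in the Zbtb32 cluster (2.25%). In plasmablast-like cells 0 of 6 members and 0.0% of all genes passed edgeR's adjusted threshold, while 2 members and 529 genes had an unadjusted p under 0.05, and DESeq2 also called 0 members there. The numbers of members with an unadjusted p under 0.05 by edgeR were 1 in marginal zone-like, 1 in activated-like, 2 in germinal center-like cells and 1 in the Zbtb32 cluster. DESeq2 called 1 member in germinal center-like cells and 0 in the other 3.

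In marginal zone-like cells Lta was 37.0, 35.3 and 34.8 CPM with R848 and 30.3, 20.5 and 18.9 with IL-4, lower in 3 of 3 sets and without overlap, but did not pass (log2 fold change -0.61, SE 0.18, adjusted p = 0.149). Ccl3 there was 135, 90.4 and 65.5 against 59.5, 75.3 and 86.0 CPM, groups that overlap (log2 fold change -0.40, adjusted p = 0.639), and Ccl4 had a log2 fold change of 0.01 (adjusted p = 0.997). The handling-induced genes summed to 5819, 4952 and 4008 against 4078, 3642 and 3159 CPM in these cells, and their part was not tested. Il10 had 63 UMIs in R848 and 2 in IL-4+R848 marginal zone-like cells, a ratio of rates of 0.154 with a 95% counting interval of 0.0183 to 0.580, and could not be tested across sets. That interval pools the sets and takes each UMI as independent, so it leaves out the spread between cells and sets. In activated-like cells Tnf was 18.7, 16.2 and 14.9 against 12, 8.76 and 10.4 CPM, also without overlap (log2 fold change -0.62, adjusted p = 0.525). With clusters made without treatment genes, Tnf (-1.27, adjusted p = 0.00899), Ccl3 (-1.64, adjusted p = 0.0052) and Ccl4 (-1.07, adjusted p = 0.0132) fell in activated-like cells, and without cells of over 50 UMIs of Ccl3 or Ccl4, a setting added after the data were seen, Ccl3 fell there (-1.78, adjusted p = 0.00626). Germinal center-like cells had 41.4, 37.6 and 31.8 against 13.2, 22.9 and 24.5 CPM of Lta, again without overlap (log2 fold change -0.88, adjusted p = 0.191). Few of the germinal center-like R848 cells met a stricter hashtag rule, described below.

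**Figure D5:**
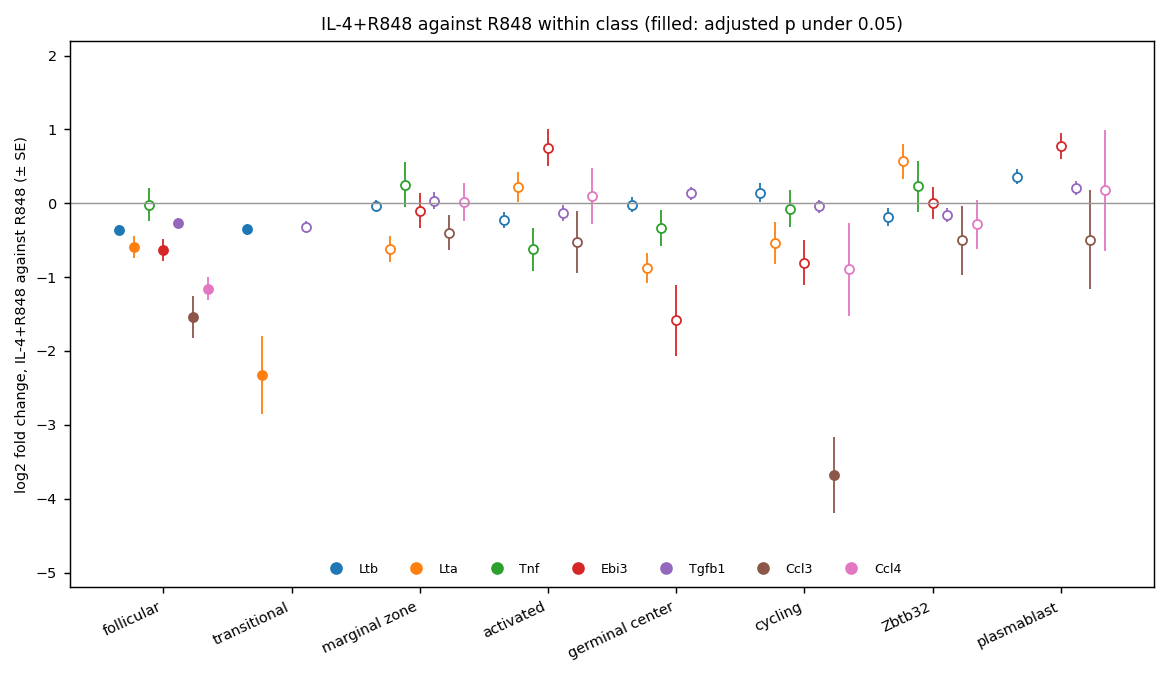
Log2 fold change of IL-4+R848 against R848 with its standard error for 7 genes in each B cell class, where filled points have an adjusted p under 0.05 (edgeR) and open points do not. The follicular-like points of Lta, Ltb, Tgfb1, Ebi3, Ccl3 and Ccl4 are filled and below 0, while the plasmablast-like points of Ltb (0.36) and Ebi3 (0.77) are open and above 0. The filled points of Ccl3 in cycling-like and Lta in transitional-like cells entered the test only through the R848 sums.

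In the fit without the set as a block, plasmablast-like cells were the only class in which a member's IL-4 effect was called different from that in follicular-like cells. Ebi3 was 12.9, 14.9 and 12.6 CPM in R848 and 20.1, 28.3 and 19.6 in IL-4+R848 plasmablast-like cells, the opposite direction to follicular-like cells. The difference between the log2 fold changes of the classes was 1.40 (SE 0.28, adjusted p = 0.00205). Ltb was 84.4, 79.9 and 67.9 against 96.3, 92.0 and 103 CPM, with a difference of 0.72 (SE 0.17, adjusted p = 0.0167). In neither gene did the plasmablast-like groups overlap, yet the change within that class did not pass by itself (adjusted p = 0.672 for Ebi3 and 0.823 for Ltb). Of the 8 members in this interaction test 2 were called, beside 1.79% of all genes. The test took the sums of all classes in 1 fit, so sums from the same library counted as independent. In the fit that paired the sets 3 members were called. The call for Ltb was lost without any 1 set, and with a stricter hashtag rule its difference was -0.20. That for Ebi3 was lost without set 1.

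The stricter hashtag rule, 16-fold in place of 4-fold, bears on plasmablast-like and germinal center-like cells because their R848 cells carried fewer hashtag counts. In plasmablast-like cells the median own tag was 1011, 768 and 537 with R848 and 1400, 1893 and 1430 with IL-4+R848. The rule kept 50.4%, 42.3% and 34.5% of the former and 76.1%, 72.7% and 50% of the latter. In germinal center-like R848 cells the medians were lower still, at 446, 345 and 328. The rule kept 28.8%, 25.7% and 21.4% of these, and 75.8%, 67.0% and 58.3% of the IL-4+R848 germinal center-like cells. In follicular-like R848 cells it kept 84.7% to 86.9%. Under the stricter rule the plasmablast-like log2 fold change of Ltb was -0.59, against 0.36 with the 4-fold rule. The part of mislabelled cells in these values was not tested. Split by heavy chain gene, Ebi3 was found in 9.40% of R848 and 20.6% of IL-4+R848 Ighm cells, whose sets did not overlap (8.49%, 10.5% and 9.69% against 20%, 24% and 18.2%), at median depths of 13552 and 15897 UMIs. The corresponding shares of switched cells were 12.1% and 16.5%, at 20071 and 21159 UMIs.

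In no other class was a member's IL-4 effect called different from that in follicular-like cells. The count was 0 of 8 in transitional-like (0.303% of all genes called), activated-like (0.228%), marginal zone-like (0.645%), germinal center-like (2.58%), cycling-like cells (0.18%) and the Zbtb32 cluster (0.133%). In the fit that paired the sets, 1 member was called in germinal center-like cells and 1 in the Zbtb32 cluster. The fall of Ccl3 in follicular-like but not in marginal zone-like cells is therefore not shown to be a difference between them (difference 1.12, SE 0.49, adjusted p = 0.466). For Ebi3 the difference in activated-like cells was 1.37 (SE 0.35, adjusted p = 0.0986), near that in plasmablast-like cells. The activated-like Ebi3 change itself was 0.75, but -0.37 with clusters made without treatment genes. For Lta the difference in the Zbtb32 cluster was 1.18 (SE 0.30, adjusted p = 0.135).

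Over all B cells together, where a level depends both on the classes present and on expression within them, 3 of 9 members fell with IL-4 (10.5% of all genes called, 4.7% falling). Il10 was 2.13, 2.83 and 1.75 CPM in R848 and 0.823, 0.700 and 0.839 in IL-4+R848 B cells (301 against 75 UMIs), a log2 fold change of -1.47 (SE 0.23, adjusted p = 0.0118). Lta was 22.3, 21.5 and 15.6 against 12.9, 13.3 and 10.7 CPM (log2 fold change -0.65, SE 0.15, adjusted p = 0.0361), and Ccl3 39.0, 26.5 and 16.7 against 10.3, 13.6 and 9.62 (log2 fold change -1.26, SE 0.30, adjusted p = 0.0396). The groups of each gene did not overlap, but leaving out any 1 set lost the calls for Il10 and Ccl3, and leaving out set 1 or set 2 lost that for Lta. Ltb and Tgfb1 did not pass, at log2 fold changes of 0.01 and 0.03. Within plasmablast-like cells Il10 did not pass either (131 against 43 UMIs, log2 fold change -0.49, SE 0.35, adjusted p = 0.9998). The same held for Il10 in germinal center-like cells (61 against 11 UMIs). The groups overlapped in both classes.

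The levels over all B cells were recomputed with either the class proportions or the class levels held at their R848 values. For Il10 the median ratio of IL-4+R848 to R848 over the 3 sets was 0.363 as observed, 0.474 with proportions held and 0.537 with levels held. In sets 1, 2 and 3 the Il10 ratio was 0.474, 0.437 and 0.897 with proportions held. It was 0.675, 0.494 and 0.537 with levels held. For Ccl3 the medians were 0.487, 0.660 and 1.02, and its sets ran from 0.342 to 0.790 with proportions held. The medians of Ltb were 0.964, 0.842 and 1.24, and the proportions and levels moved it in opposite directions. The classes were themselves drawn from genes that differ between the treatments, so these ratios describe the classes used here.

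Other genes of these pathways were counted in the same fits. In follicular-like cells, of 26 other cytokine genes 11 were tested, of which 4 fell, among them Il12a (log2 fold change -1.47, adjusted p = 2.92e-06), the partner of Ebi3 in IL-35, Ifng (-3.0) and Il18 (-1.71), and 1 rose, Mif (0.33, but -0.15 where the cells were taken by the IgD antibody). Of 21 other chemokine genes only 2 were tested and neither passed. Of 13 other tumor necrosis factor family ligands 2 were tested and 1, Tnfsf10, fell (-1.03), a call lost with DESeq2, with the IgD antibody and without any 1 set. The call for Ifng was lost without set 2.

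Among 16 receptors for the members, 12 were tested, of which 2 rose and 3 fell. Ccr4, the receptor of CCL22, rose from 3 UMIs to 49. It entered the test only through the IL-4+R848 sums, so no fold or p-value is given. Tgfbr1 rose by 0.81 on the log2 scale. Among those that fell, Tgfbr2 had a log2 fold change of -0.63 and Il10ra of -0.36. The call for Il10ra was lost without set 1 or set 3 (-0.20), with clusters made without treatment genes and with the IgD antibody (-0.09). The genes of the TGF-beta pathway were divided, with 1 of 10 tested rising (Smad2, 0.24) and 3 falling, among them the feedback inhibitor Smad7 (-0.84). The calls for Smad2 and for Smad4, another of the 3, were lost with DESeq2 and without any 1 set, and that for Smad4 also with the IgD antibody.

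Of 14 genes for mRNA decay and signalling feedback, all 14 were tested. Socs1, an inhibitor of cytokine signalling, rose from 13.6, 17.9 and 22.5 to 43.6, 57.2 and 50.7 CPM (log2 fold change 1.45, adjusted p = 9.72e-05). Socs3, a related inhibitor, fell from 30.6, 38.4 and 43.6 to 12.4, 7.83 and 9.0 CPM (log2 fold change -1.98, adjusted p = 2.10e-05). Neither pair of groups overlapped, and these genes moved in opposite directions. Among the rest, 3 fell, including Dusp2 (-0.80), and none rose.

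Genes known to regulate Il10 or to mark IL-10 producing B cells were also counted. Of 21 such genes 20 were tested in follicular-like cells, of which 11 fell and 2 rose, with a median log2 fold change of -0.54 beside 0.00 for all genes. Nfil3, which encodes a bZIP transcription factor that IL-4 is known to induce, rose from 4.0, 4.91 and 3.11 to 93.3, 124 and 108 CPM (log2 fold change 4.72, adjusted p = 2.96e-08). Maf, an activator of Il10, fell from 8.45, 9.59 and 10.3 to 3.57, 3.56 and 3.30 CPM (log2 fold change -1.47, adjusted p = 3.41e-05). Cd5 (-1.62) and Prdm1 (-1.38) also fell. Tigit rose from 7 UMIs to 108, and it entered the test only through the IL-4+R848 sums, so no fold is given. The call for Cd5 was lost without set 1 and with the IgD antibody (-0.91), and that for Prdm1 without set 2 or set 3, with DESeq2, with hashtags at least 16-fold the other tag and with the IgD antibody (-0.66). Nfil3 also rose in marginal zone-like (3.31), activated-like (3.32), cycling-like (3.46) and germinal center-like cells (1.54) and in the Zbtb32 cluster (2.89).

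Between classes, 13 of the 19 tested genes of the Il10 list were higher in marginal zone-like than in follicular-like R848 cells, including Cd9 and Nt5e, and 3 were lower, including Maf. In plasmablast-like cells 13 of 21 were higher, including Tigit and Prdm1, and 7 lower, again including Maf, and in germinal center-like cells 8 were higher and 10 lower. The shares of all genes called were 33.8%, 74.8% and 72.7% in these 3 comparisons. Cd9 and Cd1d1 were also markers used to name marginal zone-like cells, and Prdm1 and Irf4 to name plasmablast-like cells. Their higher levels in those classes follow from the naming, and the counts include them. Maf was lower than in follicular-like cells in 6 of the 7 other classes, all but transitional-like cells, and so not only where Il10 was high.

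The genes whose mean levels over the 8 classes and 2 treatments were most like those of each member, by Pearson's r over 16 values among 8655 genes, were Nr4a2 (0.948), Dnajb4 and Gbp5 for Ccl3, Plxnc1 (0.925), Rab43 and Pip4p2 for Ccl4, Ubxn11 (0.943), Hddc2 and Elmo1 for Lta, Mrtfb (0.964), Map2k1 and Ikzf3 for Ltb, Mta1 (0.916), Npm1 and Adss for Tnf, Ptpn6 (0.990), Fam3c and Arhgap17 for Tgfb1, and Tspan31 (0.906), Snap47 and Cd52 for Ebi3. Among the members Ccl3 and Ccl4 were most alike after Ltb and Tgfb1, with r = 0.915. The values share libraries and carry no p.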

How the data were processed

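Gene and antibody-tag UMI counts of 3 pooled 10x Genomics 5′ libraries were used as deposited by the authors. Per the file headers the counts came from Cell Ranger 6.0.1, and per the submitters' processing notes the genome build was mm10. Those notes also name Seurat 4.1.3, whose role is not given in the sources used here. The members and the gene lists were chosen with earlier results of these data known.

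A cell was assigned to a treatment where 1 hashtag had at least 64 UMIs and at least 4 times the other tag, after 1 was added. Barcodes with both tags (7.26% to 8.86%) were left out as doublets. No other doublet caller was run, so pairs of cells of the same treatment remain. Cells had at least 500 genes and under 10% mitochondrial UMIs. Clusters (scanpy 1.11.5, leidenalg 0.10.2, 2000 variable genes, 30 components, 15 neighbours, resolution 1) were made without the members and listed genes.

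Sums of counts over the cells of each class in a set and treatment (50 cells or more) were tested in R 4.3.3 with edgeR 4.0.16 (quasi-likelihood, TMM scaling, low-count filter, Benjamini-Hochberg threshold 0.05 over all genes tested). DESeq2 1.42.0 was an alternative. Treatments were compared without, and classes with, the set as a block. CPM values share 1 TMM scaling over all sums. Both treatments of a set came from the same library, which pairs them. In follicular-like cells same-set deviations correlated with r = 0.437, 0.395 and 0.393 (highest between sets -0.171). Over the other classes the correlations were mixed. The edgeR step was run on simulated data first. Up to 3 listed genes per list, direction and comparison, in order of size, were open to naming. Exact binomial intervals have a level of 95%, and a count of 0 allows up to 3 counts.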

Additional observations from a re-analysis of the deposited data

Results flagged for a closer look

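The effect of IL-4 (the log2 fold change of IL-4+R848 against R848) on Ebi3 and on Ltb differed between plasmablast-like and follicular-like cells. This was a test of the difference itself (edgeR interaction term, all classes in 1 fit with 3 sets each). The fit had no set term, so sums from the same library counted as independent. For Ebi3 the difference was 1.40 (SE 0.28, adjusted p = 0.00205), with higher levels in the IL-4+R848 plasmablast-like cells of 3 of 3 sets and lower levels in the IL-4+R848 follicular-like cells of 3 of 3 sets. For Ltb it was 0.72 (SE 0.17, adjusted p = 0.0167), with the same directions. The Ltb call was lost without any 1 set, and its difference was -0.20 with hashtags at least 16-fold the other tag, where the plasmablast-like log2 fold change was -0.59. The Ebi3 call was lost without set 1.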

How the results depend on the processing

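Over the alternatives, 1178 log2 values of members kept their direction and their side of the threshold, 54 lost a call, 28 gained one and 39 changed sign. Most sign changes were of values near 0. The cause was not tested in any case. Members called with IL-4 were 3 in follicular-like cells taken by the IgD gate (6 by clusters), where Mif had a log2 fold change of -0.15. Transitional-like cells gave 1 with DESeq2, 1 with 16-fold hashtags, 4 without the low-count filter and 0 with cells of at least 200 genes and under 20% mitochondrial UMIs. Germinal center-like cells gave 1 with DESeq2, 1 without immunoglobulin genes and 2 without the filter. Marginal zone-like cells gave 3 without the filter. Activated-like cells gave 3 with clusters made without treatment genes and 1 without cells holding over 50 UMIs of Ccl3 or Ccl4. The settings without immunoglobulin genes or these cells, and all but the set block for differences between classes, were added after the data were seen. With the IL-4+R848 sums, members called against follicular-like cells were 5 in marginal zone-like cells (9 with R848 sums) and 3 in cycling-like cells (6), and the Zbtb32 cluster had log2 differences of 0.91 for Lta and 0.06 for Ltb.

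With the replicate block, 1 member's IL-4 effect differed between germinal center-like and follicular-like cells and 1 between the Zbtb32 cluster and follicular-like cells. The block gave -0.01 for Ccl4 in activated-like cells, made the fall of Tgfb1 in transitional-like cells pass and changed no other member's call in the IL-4 comparisons. Without the replicate block, Ccl3 and Tgfb1 in activated-like cells and Ccl3 in the Zbtb32 cluster no longer passed against follicular-like cells.

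Sign changes of the IL-4 fold change were as follows. Without the filter Ccl4 in marginal zone-like cells was -0.02. With the looser cell filter Ccl4 in activated-like cells was -0.13 and Ltb in marginal zone-like cells 0.10. With hashtags at least 16-fold the other tag, the plasmablast-like values were -0.59 for Ltb, -0.48 for Tgfb1 and -1.11 for Ccl4, those over all B cells were -0.16 for Ltb and -0.15 for Tgfb1, the plasmablast-like minus follicular-like difference of Ltb was -0.20, and 1 member differed. With clusters made without treatment genes the activated-like values were -0.58 for Lta, -0.37 for Ebi3 and -1.07 for Ccl4, the marginal zone-like values 0.12 for Ltb, 0.22 for Ebi3 and -0.19 for Ccl4, and Ltb in the Zbtb32 cluster against follicular-like cells was 0.07. Without cells of over 50 UMIs of Ccl3 or Ccl4, Ccl4 in activated-like cells was -1.33.

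Leaving out each set in turn gave 3 to 5 members called in follicular-like cells, 0 to 1 in transitional-like cells, 0 to 1 over all B cells and 0 to 1 in the interaction of plasmablast-like cells. Log2 fold changes that crossed 0 ran, in follicular-like cells, from -0.22 to 0.27 for Tnf. In activated-like cells they ran from -1.88 to 0.07 for Ccl3 and from -1.02 to 0.75 for Ccl4. In marginal zone-like cells the ranges were -0.13 to 0.05 for Ltb, -0.03 to 0.39 for Tnf, -0.05 to 0.09 for Tgfb1, -0.38 to 0.22 for Ebi3, -0.73 to 0.05 for Ccl3 and -0.29 to 0.48 for Ccl4. They were -0.09 to 0.08 for Ltb in germinal center-like cells, -1.39 to 0.32 for Ccl3 and -0.91 to 1.35 for Ccl4 in plasmablast-like cells, -0.09 to 0.31 for Ltb, -0.22 to 0.11 for Tnf and -1.75 to 0.33 for Ccl4 in cycling-like cells, -0.78 to 0.15 for Ccl3 and -0.56 to 0.24 for Ccl4 in the Zbtb32 cluster, and -0.03 to 0.03 for Ltb over all B cells. Cells thinned to 1000 in place of 2000 UMIs had a UMI in 57.4% for Ltb in follicular-like (77.6% at 2000), 4.58% for Lta in germinal center-like (9.33%), 7.46% for Ccl3 in marginal zone-like (12.5%) and 0.61% for Il10 in plasmablast-like cells (1.02%). Il10 and Il6, with 301 and 38 UMIs in R848 B cells, were limited by depth.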
